A study of Drosophila melanogaster with 8 samples.

Results

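Fat body RNA of homozygous CPSF5 mutant larvae starved for 16 h was compared with fat body RNA of fed wild-type larvae, to see which parts of the starvation response are found in the mutant. The comparison rests on 4 of the 8 RNA sequencing libraries of the study, chosen by their genotype and starvation labels: 2 libraries of CPSF5H11/CPSF5H11 larvae starved for 16 h and 2 libraries of fed OreR larvae, the Oregon R laboratory strain that serves as wild type. Another 2 libraries of OreR larvae starved for 16 h were set beside them. The remaining 2 libraries, OreR starved for 4 h, entered the fits for the estimate of the spread. The labels give the stage as larval, with no age or instar. The mutant is a single allele, and no fed mutant was analysed here, so genotype and starvation cannot be told apart in this comparison, and neither can a difference in larval age. Whether the 2 libraries of a group come from different larvae is not in the labels. The p-values therefore reflect library-to-library spread, possibly technical.

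In flies, the fat body does the work of liver and adipose tissue. It stores fat, glycogen and protein, senses nutrients through insulin and TOR (the amino acid-sensing growth kinase), and on starvation it is known to stop making ribosomes, to switch on FOXO targets and to digest its own contents by autophagy. Near the end of larval life the steroid ecdysone is known to switch it to the making of storage proteins. Cpsf5 encodes the RNA-binding subunit of cleavage factor I, which binds UGUA motifs upstream of polyadenylation sites and, in human cells, is known to favour distal sites.

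Values are TPM (a length-adjusted share of all RNA in a library) divided by a scaling factor per library, called scaled TPM, and fold changes are log2 differences of scaled TPM + 1. A number in brackets after a gene, or after "rose by" or "fell by", is its log2 fold change against fed wild type unless another comparison is named. In the starved mutant, 4.58% and 5.41% of TPM was nuclear ribosomal RNA, against 5.19% and 6.79% in the fed libraries, while in the starved wild type it was 48.8% and 31.1%. The scaling factors were 1.24 and 1.16 in the starved mutant, 0.537 and 0.759 in the starved wild type and 1.52 and 1.31 in the fed wild type. Without scaling, the median log2 fold change over all genes was -0.12 for starved mutant against fed, -0.80 for starved wild type against fed and 0.75 for mutant against wild type, both starved. With it, the same medians were 0.07, 0.01 and 0.09. Spearman's rank correlation between the 2 libraries of a group, across the tested genes, was 0.938 for the starved mutant, 0.886 for the starved wild type and 0.958 for the fed wild type. Read depth cannot be recovered from TPM, and precision rests on the replicates.

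Of 8332 genes tested, 1914 were higher (23%) and 1863 lower (22.4%) in the starved mutant than in the fed wild type at an adjusted p under 0.05. Starved against fed wild type gave 1801 higher (21.6%) and 2309 lower (27.7%) genes. Both comparisons use the same 2 fed libraries, so their results are given side by side and their overlap is not read as a result. The direct test of starved mutant against starved wild type called 1781 genes higher (21.4%) and 1010 lower (12.1%). Without fed replicate 2 the first count of higher genes was 906, without fed replicate 1 it was 1091 and without mutant replicate 2 it was 1235. All shares of list members called are to be read against these percentages. Brackets after a list's count give it with 1 library left out, wherever it moved by over 1.5 times. Scalings, pseudocounts and the fit on 4 libraries are named where they moved a count by over 1.5 times and by 2 or more genes.

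**Figure D1:**
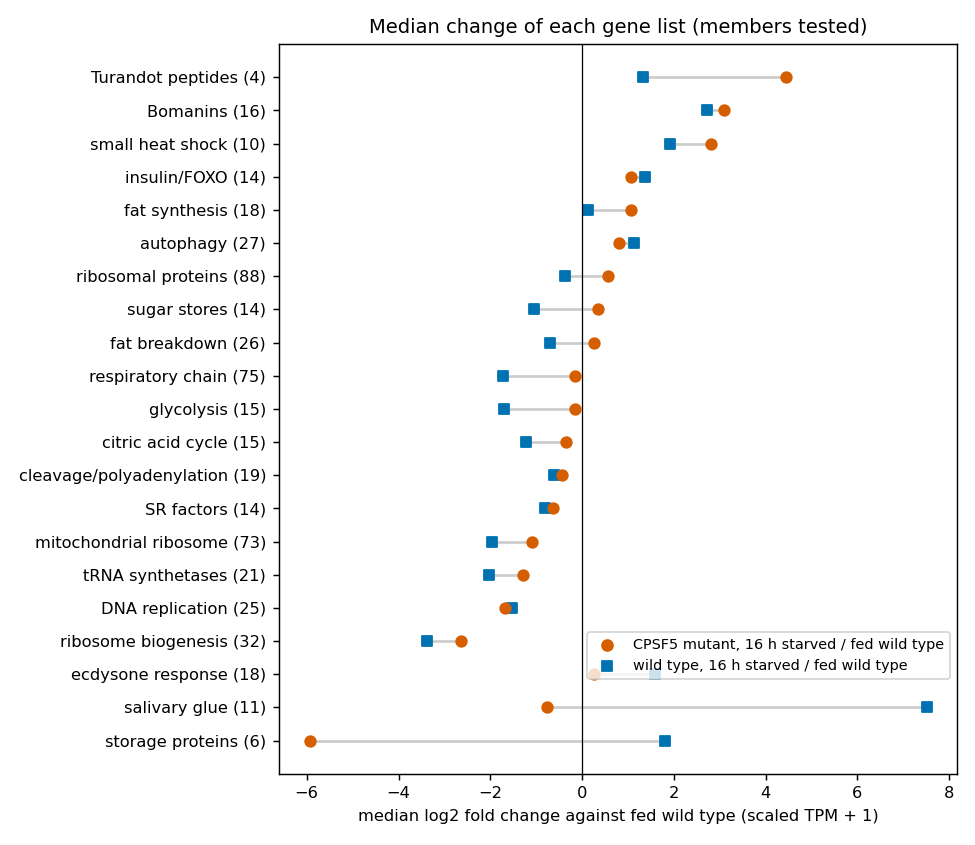
Median log2 fold change (scaled TPM + 1) of each gene list against fed wild type, with the number of members tested in brackets; circles are the CPSF5 mutant starved for 16 h and squares the wild type starved for 16 h. Ribosome biogenesis lies far to the left in both (-2.64 in the mutant and -3.37 in the wild type), while storage proteins (-5.94 and 1.81), salivary glue genes (-0.77 and 7.51) and the respiratory chain (-0.14 and -1.72) lie apart.

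Cpsf5 itself (gene FBgn0035987, chromosome arm 3L, 9411038-9413835, plus strand, in the Ensembl BDGP6.54 annotation) was lower in the starved mutant, and also in the starved wild type, than in the fed wild type. Its level was 3.60 and 3.01 scaled TPM in the mutant, 5.06 and 4.20 in starved and 11.98 and 10.9 in fed wild type. The starved mutant and fed libraries did not overlap (log2 fold change -1.53, SE 0.24, adjusted p = 0.00362), the starved wild type changed by -1.15, and the difference between mutant and wild type, both starved, was -0.39 (95% interval -0.97 to 0.20), which did not pass the test (adjusted p = 0.256). RNA level is thus no check of the genotype labels here, and the labels do not describe the allele's lesion. The tissue label was checked with apolpp, the precursor of the main fat body lipoprotein. It had 2335 and 1732 scaled TPM in the mutant, 1917 and 1449.96 in starved and 1747 and 1379.9 in fed wild type, with no difference past the test (adjusted p = 0.340 against fed and 0.502 against starved wild type). The other carrier genes listed with apolpp were not all alike. Against starved wild type, Apoltp, Tsf1 and Mtp were higher in the mutant (log2 differences 2.87, 2.15 and 0.68) and NLaz lower (-4.22), each past the test. Tsf2, Fer1HCH and Fer2LCH did not pass in that comparison. The fat body's storage protein genes, described below, were far lower in the mutant libraries, and 3 (1 without either fed library) of 12 fat body markers rose and 4 fell.

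Among genes that passed the test against fed in both starved groups, some were picked because mutant and wild type, both starved, differed by under 0.5 on the log2 scale, so their likeness is a description. REPTOR-BP, the bZIP partner of the transcription factor REPTOR, which acts when TORC1 activity is low, had 54.3 and 58.3 scaled TPM in the mutant, 44.3 and 46.9 in starved and 1.53 and 1.91 in fed wild type. TP53INP, known to promote autophagy, had 26.7 and 29.8 in the mutant, 31.4 and 31.99 in starved and 0.903 and 0.322 in fed wild type. In both genes the fed libraries lay far below all 4 starved libraries. REPTOR-BP rose in the starved mutant (log2 fold change 4.40, SE 0.16, adjusted p = 0.000155) and so did TP53INP (log2 fold change 4.20, SE 0.28, adjusted p = 0.000212). The differences between mutant and wild type, both starved, were 0.30 (95% interval -0.10 to 0.69) for REPTOR-BP and -0.16 (95% interval -0.83 to 0.51) for TP53INP, so differences inside these intervals are not excluded by the test. By the same ranking, CG8745, CG9837 and CG6870 were high in both starved groups, with log2 fold changes against fed of 6.62, 4.57 and 4.25 in the mutant.

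Among the genes low in both starved groups, Fkbp39, a nuclear FK506-binding protein known to inhibit autophagy in the fat body, had 12.1 and 12.1 scaled TPM in the mutant, 11.8 and 9.08 in starved and 168 and 185 in fed wild type. It fell in the mutant (log2 fold change -3.75, SE 0.21, adjusted p = 0.000182), with a difference from starved wild type of 0.21 (95% interval -0.31 to 0.73). The deoxyhypusine hydroxylase nero, which modifies the translation factor eIF5A, had 3.48 and 4.56 in the mutant, 4.65 and 2.86 in starved and 52.1 and 80.7 in fed wild type and fell by 3.72 on the log2 scale in the mutant (adjusted p = 0.000301). CG13445, CG31248 and CG11425 followed, with log2 fold changes of -4.60, -4.28 and -4.15 in the mutant.

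**Figure D2:**
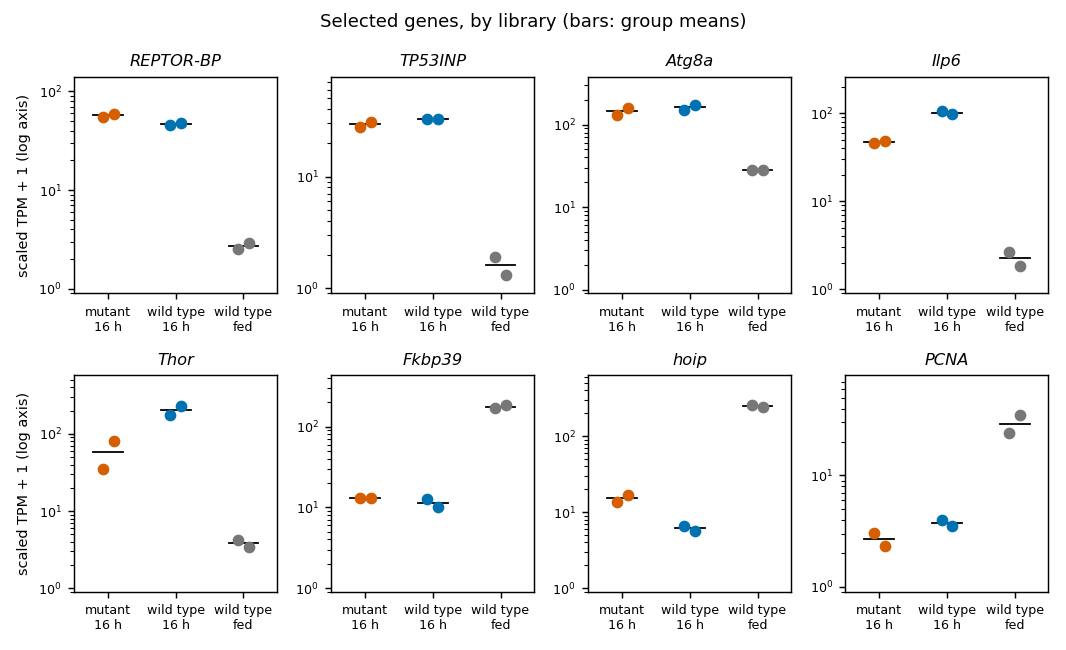
Scaled TPM + 1 on a log axis in each library of the mutant starved for 16 h, the wild type starved for 16 h and the fed wild type; points are libraries and bars group means. For REPTOR-BP, TP53INP, Atg8a and Ilp6 all mutant points lie above the fed points, for Fkbp39, hoip and PCNA below them, and Thor is higher in the starved wild type (176 and 230.2) than in the mutant (34.2 and 80.9).

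Most autophagy genes tested rose in the starved mutant, and several components were lower in it than in starved wild type. Of 27 tested autophagy genes, 17 (11 without fed replicate 2) rose and 1 fell against fed, with a median log2 fold change of 0.80, and in starved wild type 19 rose and 1 (0 without either starved wild-type library or either fed library) fell, with a median of 1.12. ref(2)P, the cargo receptor p62, had 71.3 and 147 scaled TPM in the mutant, 45.6 and 71.6 in starved and 10.5 and 9.16 in fed wild type, and it rose in the mutant (log2 fold change 3.26, SE 0.47, adjusted p = 0.00267). Atg8a, the ubiquitin-like protein attached to autophagosome membranes, had 131 and 160.05 scaled TPM in the mutant, 151 and 171 in starved and 27.4 and 27.4 in fed wild type. All mutant libraries were far above every fed library for Atg8a (log2 fold change 2.36, SE 0.23, adjusted p = 0.000665). Atg18b, a membrane-binding WD-repeat protein, and Atg4a, the protease that processes Atg8, rose by 2.54 and 2.16. For autophagy genes, starved against fed wild type, higher genes numbered 4 with no scaling.

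Atg1, the kinase that starts autophagy, had 2.53 and 3.52 scaled TPM in the mutant, 5.18 and 7.57 in starved and 2.03 and 2.02 in fed wild type. The mutant libraries lay above the fed ones and below both starved wild-type libraries, and the rise did not pass the test in the mutant (log2 fold change 0.40, SE 0.23, adjusted p = 0.213), whereas mutant against wild type, both starved, did (log2 fold change -0.87, SE 0.23, adjusted p = 0.0333). Atg7, the enzyme that activates Atg8 and Atg12, had 1.90 and 1.53 in the mutant, 17.6 and 12.1 in starved and 0.548 and 0.552 in fed wild type, a much smaller rise in the mutant (log2 fold change 0.80) than in the wild type (3.33), and the difference of -2.53 passed (adjusted p = 0.00181). Atg101, a subunit of the Atg1 complex, had 0.991 and 0.804 in the mutant, 4.997 and 3.60 in starved and 4.95 and 6.15 in fed wild type. It was the autophagy gene that fell in the mutant (log2 fold change -1.78, SE 0.17, adjusted p = 0.000665). The SNARE proteins Snap29 and Vamp7, which fuse autophagosomes with lysosomes, changed by 0.16 and 0.24 against fed in the mutant, neither past the test, and by -0.96 and -1.09 against starved wild type, both past it. In the direct test 4 (0 without starved wild-type replicate 2, 1 without starved wild-type replicate 1 or either fed library, 2 without mutant replicate 1) autophagy genes were higher and 6 (3 without mutant replicate 1) lower in the mutant. For autophagy genes, mutant against starved wild type, higher genes numbered 1 fitted on only the 4 libraries compared, 2 with quantile normalisation or with a pseudocount of 0.1 and 11 with no scaling and lower genes numbered 2 with no scaling.

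More insulin and FOXO genes rose than fell in the starved mutant. Of 14 genes of the pathway, 8 rose and 1 fell against fed (median 1.07), beside 9 and 1 (0 without either starved wild-type library or either fed library) in starved wild type (median 1.37). Ilp6, the insulin-like peptide made by the fat body, had 44.7 and 47.9 scaled TPM in the mutant, 104 and 95.6 in starved and 1.66 and 0.832 in fed wild type. Ilp6 had a log2 fold change of 4.42 (SE 0.39, adjusted p = 0.000519). Thor, the translation repressor 4E-BP and a FOXO target, had 34.2 and 80.9 in the mutant, 176 and 230.2 in starved and 3.18 and 2.46 in fed wild type. Thor rose in the mutant (log2 fold change 3.82, SE 0.48, adjusted p = 0.00165) and was lower there than in starved wild type (log2 difference -1.91, adjusted p = 0.0268). The insulin receptor gene InR, another FOXO target, ran the other way, with 11.7 and 11.4 in the mutant, 3.28 and 3.83 in starved and 0.379 and 0.190 in fed wild type and a mutant level above starved wild type (log2 fold change 1.47, SE 0.18, adjusted p = 0.00284). Pi3K21B, the regulatory subunit of PI3-kinase, fell in the mutant, with 3.29 and 4.21 in the mutant, 7.35 and 7.81 in starved and 11.5 and 10.8 in fed wild type. Pi3K21B had a log2 fold change of -1.36 (SE 0.16, adjusted p = 0.00141). foxo itself had 8.38 and 8.26 in the mutant, 19.0 and 15.5 in starved and 6.39 and 5.39 in fed wild type, and the mutant libraries were above the fed ones without passing (adjusted p = 0.124). For insulin and FOXO genes, starved against fed wild type, higher genes numbered 4 with no scaling and lower genes numbered 3 with no scaling.

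Of 19 genes for signals that the fat body and its neighbours send or receive, 10 (6 without fed replicate 2) rose and 1 (0 without mutant replicate 1 or either fed library) fell. Lst, which encodes limostatin, a hormone known to suppress insulin release, had 241 and 269 scaled TPM in the mutant, 358 and 373 in starved and 14.04 and 6.45 in fed wild type. Lst had a log2 fold change of 4.59 (SE 0.41, adjusted p = 0.000519). Gbp1, a growth-blocking peptide by which the fat body reports amino acids, had 28.3 and 34.6 in the mutant, 152 and 97.5 in starved and 4.23 and 3.56 in fed wild type. It rose in the mutant by 2.73 and was lower there than in starved wild type (log2 difference -1.92), both past the test. AkhR, the receptor of adipokinetic hormone, which mobilises fat, had 58.6 and 44.3 in the mutant, 20.4 and 19.5 in starved and 13.6 and 11.4 in fed wild type and was higher in the mutant than in either wild-type group (1.95 against fed and 1.31 against starved wild type). Of 17 TOR and amino acid-sensing genes, 5 (1 without fed replicate 2, 2 without fed replicate 1, 3 without either mutant library) rose and 1 (2 without either 4 h library) fell, led by the amino acid transporter path (1.53), Sesn (0.96) and Iml1 (0.89), the last 2 being inhibitors of TORC1. Of 9 genes of the ATF4 stress pathway, 3 (0 without mutant replicate 2 or either fed library) rose, among them crc, the fly ATF4, with 235 and 275 in the mutant, 161 and 164 in starved and 143 and 134 in fed wild type (0.87), and eIF2alpha fell by 1.61. For signal genes, mutant against fed, higher genes numbered 6 with no scaling. For TOR-sensing genes, mutant against fed, higher genes numbered 1 with no scaling or rescaled over coding genes and 3 with quantile normalisation. For ATF4 pathway genes, mutant against fed, higher genes numbered 0 with no scaling and 1 rescaled over coding genes.

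Most genes of ribosome biogenesis had lower RNA levels in the starved mutant than in fed wild type, and many of them were higher there than in starved wild type. Of 32 genes of ribosome biogenesis and small nucleolar RNPs, 29 fell and 1 (2 without mutant replicate 1 or either 4 h library) rose in the mutant, with a median log2 fold change of -2.64, against 30 falling and 0 rising in starved wild type, with a median of -3.37. hoip, a protein of box C/D snoRNPs and the spliceosome, had 12.4 and 16.0 scaled TPM in the mutant, 5.62 and 4.64 in starved and 259 and 239 in fed wild type. Nop56, a core protein of box C/D snoRNPs, had 9.19 and 10.7 in the mutant, 5.13 and 5.06 in starved and 97.5 and 99.1 in fed wild type. Nop60B, the pseudouridine synthase of box H/ACA snoRNPs, had 14.4 and 13.3 in the mutant, 7.22 and 7.87 in starved and 153 and 166 in fed wild type. In these 3 genes both mutant libraries lay below the fed ones and above both starved wild-type libraries. hoip fell by 4.05 on the log2 scale in the mutant (SE 0.20, adjusted p = 0.000158). Mutant against wild type, both starved, called 25 (11 without starved wild-type replicate 2, 13 without mutant replicate 2 or starved wild-type replicate 1, 16 without mutant replicate 1) of the 32 genes higher and 0 lower.

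The enzymes that load tRNAs with amino acids followed. Of 21 aminoacyl-tRNA synthetases, 17 fell and 0 rose in the mutant (median -1.28), beside 19 falling in starved wild type (median -2.02). ArgRS had 7.76 and 8.86 scaled TPM in the mutant, 6.81 and 7.15 in starved and 40.2 and 44.0 in fed wild type, so both starved groups lay well below fed (log2 fold change -2.21, SE 0.17, adjusted p = 0.000317). Of 48 translation factors, 21 (12 without fed replicate 1) fell and 3 (0 without mutant replicate 1 or either fed library, 1 without mutant replicate 2) rose in the mutant. eIF6, which joins in making the large ribosomal subunit, fell by 2.41, eEF1delta by 2.40, and the release factors eRF3 and eRF1 by 2.01 and 1.63. Of 73 mitochondrial ribosomal proteins, 62 fell and 0 (1 without mutant replicate 2) rose in the mutant (median -1.08), against 71 falling in starved wild type (median -1.97). mRpS26 had 4.93 and 4.52 in the mutant, 3.84 and 2.04 in starved and 26.3 and 22.7 in fed wild type. mRpS26 had a log2 fold change of -2.15 (SE 0.24, adjusted p = 0.00102). Of the 73, 46 (24 without mutant replicate 1, 25 without starved wild-type replicate 2) were higher in the mutant than in starved wild type. For translation factors, mutant against fed, higher genes numbered 0 with no scaling and 1 rescaled over coding genes or with quantile normalisation. For mitochondrial ribosomal proteins, mutant against starved wild type, higher genes numbered 29 fitted on only the 4 libraries compared and 71 with no scaling.

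The cytosolic ribosomal proteins did not follow ribosome biogenesis. Of 88 tested, 14 (1 without mutant replicate 2 or either fed library, 6 without either starved wild-type library, 8 without mutant replicate 1, 28 without 4 h replicate 2, 29 without 4 h replicate 1) rose and 2 fell in the mutant, with a median of 0.56. RpL5, a large-subunit protein that carries 5S rRNA, had 1965 and 2559.6 scaled TPM in the mutant, 772 and 825 in starved and 989 and 1019 in fed wild type. RpL15, another large-subunit protein, had 2010.3 and 2231 in the mutant, 783 and 853 in starved and 959 and 1039.7 in fed wild type. Both mutant libraries lay above all 4 wild-type libraries for RpL5 (log2 fold change 1.16, SE 0.24, adjusted p = 0.00930). The 2 that fell were RpLP0-like and RpL7-like (-3.17 and -1.14), relatives of ribosomal proteins that act in ribosome assembly. Against starved wild type, 57 (10 without mutant replicate 2 or starved wild-type replicate 1, 18 without starved wild-type replicate 2, 20 without mutant replicate 1, 36 without either fed library) of the 88 were higher in the mutant. For ribosomal proteins, mutant against fed, higher genes numbered 0 with no scaling and 5 with quantile normalisation.

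**Figure D3:**
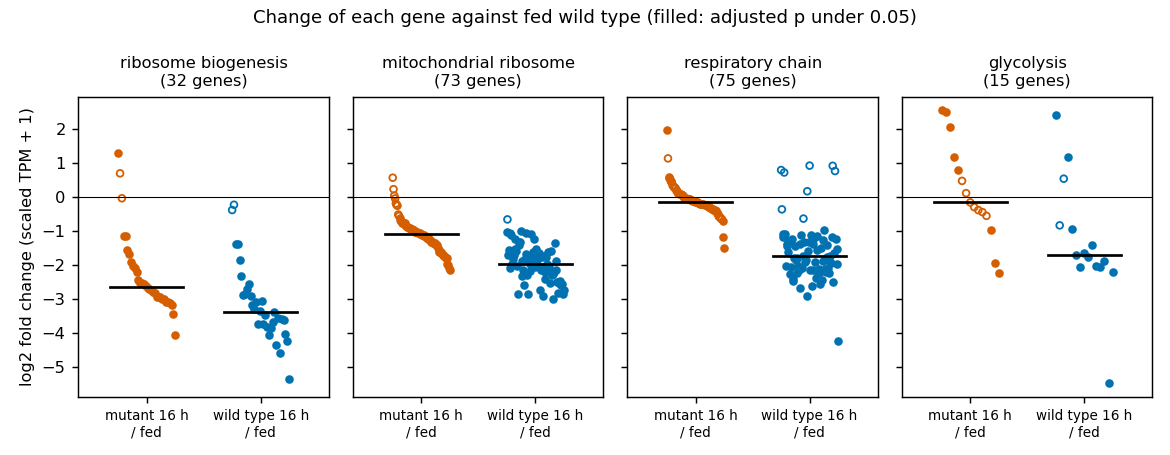
Log2 fold change against fed wild type (scaled TPM + 1) of every tested gene of 4 lists, for the mutant starved for 16 h and the wild type starved for 16 h; filled points passed the test, black lines are medians. Most ribosome biogenesis and mitochondrial ribosomal genes lie below 0 in both. Most respiratory chain and glycolysis genes lie below 0 in the wild type (medians -1.72 and -1.70). In the mutant most respiratory chain genes lie near 0 (median -0.14), while glycolysis genes are split to both sides of 0 (median -0.15).

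Most respiratory chain genes that fell in starved wild type stayed near the fed level in the starved mutant. Of 75 nuclear genes of the respiratory chain and ATP synthase, 3 (1 without mutant replicate 2 or either fed library) fell and 2 (0 without either fed library, 1 without either mutant library or either starved wild-type library or either 4 h library) rose in the mutant (median -0.14; 0.01 without fed replicate 1 and 0.03 without mutant replicate 2), beside 66 falling and 0 rising in starved wild type (median -1.72). In the direct test 64 were higher and 0 lower in the mutant, and no scaling, rescaling over coding genes and quantile normalisation gave 70, 61 and 60 higher. Cyt-c-p, cytochrome c, fell most of the list, with 143 and 159 scaled TPM in the mutant, 17.9 and 25.9 in starved and 454 and 398 in fed wild type. The change in the mutant was -1.49 (SE 0.23, adjusted p = 0.00345), and both mutant libraries lay above both starved wild-type libraries. COX7A, a subunit of cytochrome c oxidase, fell by 1.17, and the complex I subunit ND-23 by 0.71. The 2 that rose were COX6AL, a low member, with 1.501 and 6.88 in the mutant, 1.92 and 0.289 in starved and 0.211 and 0.0184 in fed wild type, and ND-13B. ND-13B, a complex I subunit, had 61.8 and 50.1 in the mutant, 16.6 and 16.9 in starved and 40.0 and 33.2 in fed wild type. ND-13B had a log2 fold change of 0.60 (SE 0.19, adjusted p = 0.0433). For respiratory chain genes, mutant against fed, lower genes numbered 1 fitted on only the 4 libraries compared and higher genes numbered 0 fitted on only the 4 libraries compared.

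Glycolysis was split in the mutant. Of 15 genes, 5 (2 without fed replicate 1, 3 without either mutant library or fed replicate 2) rose and 3 (1 without mutant replicate 2 or fed replicate 2) fell, beside 2 (1 without starved wild-type replicate 1 or either fed library) and 11 in starved wild type, and 12 were higher and 0 lower in the mutant than in starved wild type. Pdk, the kinase that shuts off pyruvate dehydrogenase, had 25.7 and 37.6 scaled TPM in the mutant, 19.4 and 40.9 in starved and 4.48 and 4.35 in fed wild type and rose in the mutant (log2 fold change 2.57, SE 0.37, adjusted p = 0.00267). Hex-A, a hexokinase at the entry of glycolysis, had 29.0 and 25.0 in the mutant, 6.90 and 10.9 in starved and 5.93 and 5.35 in fed wild type, with both mutant libraries above all wild-type libraries (2.07, adjusted p = 0.00213). Tpi, triosephosphate isomerase, had 37.3 and 38.4 in the mutant, 40.2 and 36.5 in starved and 172 and 189.7 in fed wild type, so that both starved groups lay at about the same level (difference -0.02 (95% interval -0.65 to 0.62)). Pfk, the committed step, rose in the mutant (0.81) and fell in starved wild type (-0.95), both past the test. Ldh, lactate dehydrogenase, was 10.3 and 41.6 in the mutant, 0.626 and 1.86 in starved and 1.38 and 5.15 in fed wild type, uneven within both groups, and rose in the mutant (2.52).

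Of 15 citric acid cycle genes, 4 (2 without mutant replicate 2 or either fed library) fell and 1 (0 without fed replicate 2) rose in the mutant, beside 13 falling in starved wild type. The fallers in the mutant included Idh3a, a subunit of isocitrate dehydrogenase (-1.83), and Fum1, fumarase (-1.40), whereas ScsbetaA, the ATP-forming subunit of succinyl-CoA synthetase, had 124 and 135 scaled TPM in the mutant, 31.9 and 37.0 in starved and 65.5 and 57.2 in fed wild type and rose (log2 fold change 1.07, SE 0.21, adjusted p = 0.00756). Of 14 genes of trehalose, glycogen and glucose production, 4 rose in the mutant and 1 (0 without mutant replicate 2 or either starved wild-type library or 4 h replicate 2 or either fed library, 2 without 4 h replicate 1) fell. Tret1-1, the transporter that releases trehalose into the blood, had 302 and 193 in the mutant, 152 and 138 in starved and 17.7 and 12.3 in fed wild type and rose in the mutant (log2 fold change 3.94, SE 0.32, adjusted p = 0.000383). Tps1, which makes trehalose, the blood sugar of insects, had 262 and 327 in the mutant, 35.3 and 38.7 in starved and 126 and 116 in fed wild type. The mutant libraries were above the fed ones (log2 fold change 1.27, SE 0.20, adjusted p = 0.00374), while starved wild type lay below them (-1.68, adjusted p = 0.00103). For sugar genes, mutant against fed, higher genes numbered 2 with no scaling.

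Several fat synthesis genes rose in the starved mutant. Of 18 fat synthesis genes, 7 (2 without either fed library, 3 without mutant replicate 1) rose and 2 (0 without mutant replicate 1 or either fed library, 1 without mutant replicate 2) fell in the mutant (median 1.06). In starved wild type 2 (0 without fed replicate 2, 1 without either starved wild-type library or fed replicate 1) rose and 3 fell (median 0.13; -0.97 with no scaling and -0.14 rescaled over coding genes). Agpat2, an acyltransferase on the way to triglyceride, had 99.3 and 65.1 scaled TPM in the mutant, 9.76 and 9.58 in starved and 6.31 and 6.27 in fed wild type. Agpat2 had a log2 fold change of 3.48 (SE 0.83, adjusted p = 0.0166). FASN1, fatty acid synthase, had 753 and 221 in the mutant, 124 and 110.4 in starved and 95.5 and 84.8 in fed wild type. FASN1 had a log2 fold change of 2.17 (SE 0.54, adjusted p = 0.0193). ACC, acetyl-CoA carboxylase, had 261 and 76.6 in the mutant, 34.7 and 27.0 in starved and 27.99 and 33.4 in fed wild type. ACC had a log2 fold change of 2.17 (SE 0.68, adjusted p = 0.0408). In all 3 genes mutant replicate 1 was the highest of the 6 libraries and mutant replicate 2 the second highest. SREBP, the transcription factor of fatty acid synthesis, had 49.2 and 35.6 in the mutant, 8.37 and 12.1 in starved and 9.23 and 9.06 in fed wild type and was higher in the mutant than in fed (2.08, adjusted p = 0.00104) and starved wild type (1.95, adjusted p = 0.00241). For fat synthesis genes, starved against fed wild type, higher genes numbered 0 with no scaling and 4 fitted on only the 4 libraries compared and lower genes numbered 6 with no scaling.

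Of 26 genes of lipid droplets, lipolysis and fatty acid oxidation, 8 (1 without fed replicate 2, 3 without either mutant library or fed replicate 1, 4 without either starved wild-type library) rose and 3 fell in the mutant. In starved wild type 4 (2 without either starved wild-type library or either fed library) rose and 15 (9 without starved wild-type replicate 2 or fed replicate 2) fell. whd, carnitine palmitoyltransferase 1, the entry step of mitochondrial fat oxidation, had 46.2 and 37.6 scaled TPM in the mutant, 54.5 and 59.0 in starved and 11.3 and 4.99 in fed wild type. whd had a log2 fold change of 2.31 (SE 0.38, adjusted p = 0.00407). Lsd-1, the lipid droplet coat protein perilipin 1, had 641 and 355 in the mutant, 427 and 533 in starved and 161 and 157 in fed wild type. The brummer lipase bmm had 3.17 and 9.30 in the mutant, 17.0 and 14.04 in starved and 1.75 and 0.768 in fed wild type. All mutant libraries were above the fed ones in these 3 genes. bmm rose in both (1.57 in the mutant and 2.90 in the wild type), and the difference of -1.33 did not pass (adjusted p = 0.0792). For fat breakdown genes, mutant against fed, higher genes numbered 2 with no scaling, 3 rescaled over coding genes and 5 with quantile normalisation. For fat breakdown genes, starved against fed wild type, higher genes numbered 2 with no scaling.

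DNA replication genes fell in both starved groups. The larval fat body is polyploid and is known to replicate its DNA by endocycles while the larva feeds. Of 25 replication genes, 18 fell and 2 (1 without either fed library) rose in the mutant (median -1.67), beside 20 falling in starved wild type (median -1.52). PCNA, the sliding clamp of DNA polymerase, had 2.07 and 1.30 scaled TPM in the mutant, 2.99 and 2.52 in starved and 22.9 and 33.6 in fed wild type. PCNA had a log2 fold change of -3.44 (SE 0.26, adjusted p = 0.000301). Mcm3 and Mcm5, subunits of the replicative helicase, fell by 2.66 and 2.68, and RnrS, a subunit of ribonucleotide reductase, by 2.63. Between mutant and wild type, both starved, 2 of the 25 were higher and 0 lower. Those higher were Prim1 and Psf2. Prim1, a primase subunit, had 7.16 and 4.88 in the mutant, 0.777 and 0.784 in starved and 2.73 and 2.53 in fed wild type. Psf2 of the GINS complex had 12.002 and 8.64 in the mutant, 3.65 and 3.53 in starved and 2.996 and 3.20 in fed wild type. Of 19 delta and epsilon glutathione transferases, enzymes of detoxification, 9 fell and 0 (1 without mutant replicate 1) rose in the mutant. GstD7 had 2.77 and 5.92 in the mutant, 0.409 and 0.183 in starved and 151 and 71.0 in fed wild type. GstD10 had 1.17 and 3.42 in the mutant, 3.53 and 3.17 in starved and 49.4 and 44.2 in fed wild type.

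Most storage protein genes were far lower in the starved mutant than in either wild-type group, and 1, Lsp1gamma, was higher. Of 6 genes, 4 fell and 1 (0 without mutant replicate 2) rose in the mutant (median -5.94), while 3 rose and 0 (1 without fed replicate 2) fell in starved wild type (median 1.81, and -0.31 with quantile normalisation). Lsp1alpha, a subunit of the larval serum protein that is laid down as an amino acid store for metamorphosis, had 9.41 and 9.48 scaled TPM in the mutant, 12752 and 12168 in starved and 4525 and 9728 in fed wild type. Lsp2, a related hexamerin, had 8.64 and 16.7 in the mutant, 23728 and 24705 in starved and 2373 and 5703 in fed wild type. Both mutant libraries were far below every wild-type library in both genes, and these were the largest falls among protein-coding genes tested, -9.31 (SE 0.38, adjusted p = 0.000155) and -8.14 (SE 0.49, adjusted p = 0.000185). Fbp2, an alcohol dehydrogenase-like fat body protein, had 4.17 and 10.4 in the mutant, 13064 and 15182 in starved and 579 and 3043 in fed wild type. Fbp2 had a log2 fold change of -7.44 (SE 0.86, adjusted p = 0.00122). Lsp1beta had 735 and 468 in the mutant, 14875 and 13452 in starved and 9395 and 17392 in fed wild type (-4.44). In bulk RNA, fewer cells of a type and less RNA per cell cannot be told apart. For storage proteins, starved against fed wild type, higher genes numbered 1 with quantile normalisation and lower genes numbered 2 with quantile normalisation.

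Fbp1, the receptor by which the fat body takes the serum proteins back, had 2.13 and 3.61 scaled TPM in the mutant, 9098 and 5641 in starved and 6.56 and 13.0 in fed wild type. Its rise in starved wild type (9.44, adjusted p = 9.8e-05) had no counterpart in the mutant, where both libraries lay below the fed ones without passing (-1.44, adjusted p = 0.0842), and mutant against wild type, both starved, passed (-10.88, adjusted p = 0.000276). Lsp1gamma ran opposite to its relatives, with 132 and 204 in the mutant, 0.0650 and 0.0690 in starved and 15.6 and 0.0358 in fed wild type. It was high in both mutant libraries, moderate in 1 fed library and near 0 in the other fed and both starved wild-type libraries (log2 fold change 5.31, SE 1.16, adjusted p = 0.0122).

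**Figure D4:**
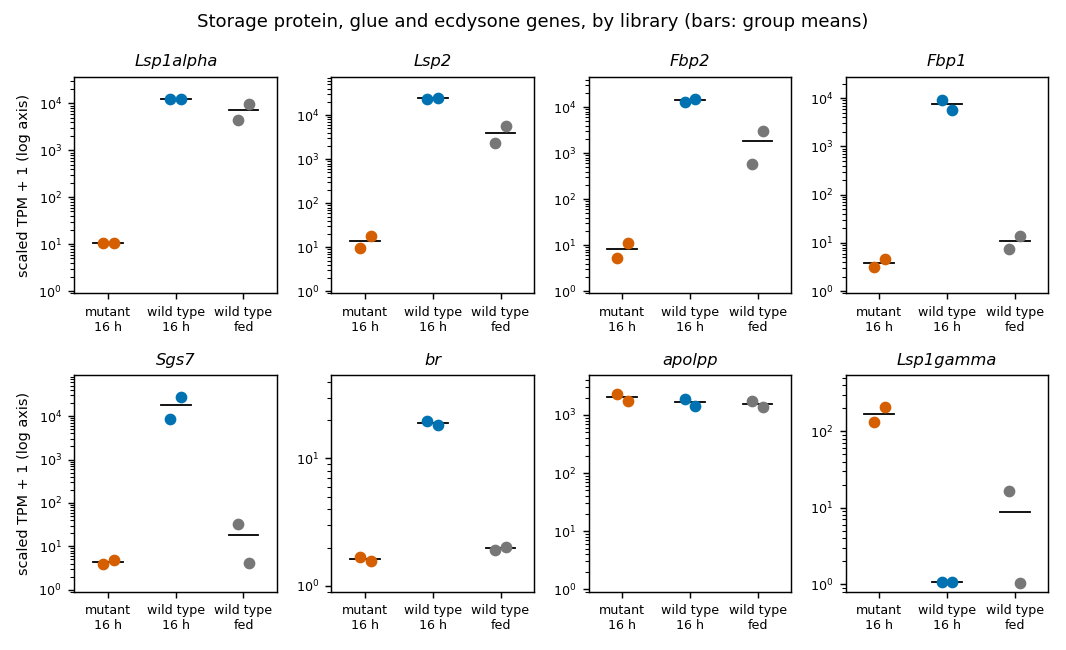
Scaled TPM + 1 on a log axis in each library of the mutant starved for 16 h, the wild type starved for 16 h and the fed wild type; points are libraries and bars group means. Lsp1alpha, Lsp2 and Fbp2 are lowest in the mutant, Fbp1, Sgs7 and br are high in the starved wild type alone among these 3 groups, apolpp is alike in all, and Lsp1gamma is highest in the mutant.

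Several ecdysone response genes that rose in starved wild type were lower in the mutant. Of 18 ecdysone response genes, 4 (1 without mutant replicate 2 or fed replicate 2, 2 without mutant replicate 1 or fed replicate 1) rose and 1 (2 without either starved wild-type library) fell in the mutant, against 14 and 1 (0 without fed replicate 1) in starved wild type, and 9 were lower and 0 (1 without mutant replicate 1 or 4 h replicate 2) higher in the mutant than in starved wild type. br, the broad transcription factor of the early ecdysone response, had 0.699 and 0.582 scaled TPM in the mutant, 18.8 and 17.2 in starved and 0.915 and 1.02 in fed wild type. Eip74EF, another early response factor, had 1.10 and 1.13 in the mutant, 12.1 and 13.7 in starved and 0.899 and 0.915 in fed wild type. For both, the mutant libraries stood at fed level (-0.26 and 0.15, adjusted p = 0.274 and 0.357). The receptor gene EcR had 5.61 and 4.40 in the mutant, 17.7 and 30.3 in starved and 2.54 and 2.73 in fed wild type. Eip75B, a nuclear receptor, rose in the mutant (0.89) and more in starved wild type (2.03), with a difference of -1.14 that passed (adjusted p = 0.0109). Kr-h1, a transcription factor of the juvenile hormone response, rose by 1.20, and MsrA, methionine sulfoxide reductase, by 1.98. For ecdysone genes, mutant against fed, higher genes numbered 2 with no scaling or with a pseudocount of 5.

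The salivary glue genes, which are made by salivary glands and switched on by ecdysone late in larval life, were likewise high in starved wild type and not in the mutant. Of 11 glue and salivary genes, 0 rose and 0 (1 without either starved wild-type library or fed replicate 2) fell in the mutant by limma (0 passed at an unadjusted p under 0.05), against 8 rising in starved wild type, and 8 were lower in the mutant than in starved wild type. Sgs7 had 2.98 and 3.75 scaled TPM in the mutant, 8523 and 27808 in starved and 31.8 and 3.19 in fed wild type. The change in the mutant was -1.43 (adjusted p = 0.290) and rested on fed replicate 1, without which it was 0.035. The median over the glue and salivary genes in the mutant was -0.77, and 0.04 without fed replicate 1. The early salivary genes ng1, ng2 and ng3 were found in all 3 groups, with ng1 at 785 and 127 in the mutant, 489 and 596 in starved and 339 and 1218 in fed wild type. The part of salivary gland RNA in these values was not tested.

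Immune and stress peptides were among the largest rises of the mutant. TotC, a humoral stress peptide of the Turandot family, had 931 and 359.6 scaled TPM in the mutant, 5.34 and 2.44 in starved and 0.241 and 0.262 in fed wild type and gave the largest rise among protein-coding genes that met the naming rule (log2 fold change 8.86, SE 0.76, adjusted p = 0.000456). TotA, its abundant relative, had 3651 and 3593 in the mutant, 880.2 and 663 in starved and 42.6 and 54.2 in fed wild type. TotA had a log2 fold change of 6.21 (SE 0.23, adjusted p = 0.000155). All 4 tested Turandot genes rose in the mutant and 1 (2 without starved wild-type replicate 2 or either 4 h library) in starved wild type, and all 4 were higher in the mutant than in wild type starved for 16 h. In wild type starved for 4 h, TotA had 2886 and 2950.2 and TotC 84.1 and 19.3. TotB had 7.30 and 4.40 in the mutant, against 17.1 and 20.5 in wild type starved for 4 h, which was the higher. Of 16 Bomanin and related short immune peptides, 8 (5 without mutant replicate 2 or either fed library) rose and 0 fell in the mutant, beside 8 (4 without starved wild-type replicate 1 or either fed library, 5 without starved wild-type replicate 2) and 2 (1 without either starved wild-type library or fed replicate 1) in starved wild type. BomS6 had 433 and 957 in the mutant, 3.03 and 3.71 in starved and 0.308 and 0.602 in fed wild type. BomS6 had a log2 fold change of 8.80 (SE 0.72, adjusted p = 0.000390). BomS3 had 112 and 318 in the mutant, 107 and 99.7 in starved and 0.436 and 0.905 in fed wild type (6.84). BomS6 was thus high in the mutant alone among the 3 groups, and BomS3 in both starved groups. For Turandot genes, starved against fed wild type, higher genes numbered 3 with a pseudocount of 0.1. For Bomanins, mutant against fed, higher genes numbered 4 with a pseudocount of 5. For Bomanins, starved against fed wild type, higher genes numbered 5 with a pseudocount of 5.

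Of 14 antimicrobial peptide genes, 2 rose and 3 fell in the mutant. Drs, drosomycin, had 537 and 1495 scaled TPM in the mutant, 467 and 311 in starved and 0.824 and 2.09 in fed wild type. Drs had a log2 fold change of 8.56 (SE 0.74, adjusted p = 0.000462). Def, defensin, had 31.3 and 106 in the mutant, 0.254 and 0.230 in starved and 0.783 and 0.575 in fed wild type. Def had a log2 fold change of 5.13 (SE 0.51, adjusted p = 0.000700). The fallers were DptA, CecC and CecA1, and DptA had 1.86 and 16.4 in the mutant, 20.5 and 86.2 in starved and 58.5 and 131 in fed wild type. DptA had a log2 fold change of -3.65 (SE 1.11, adjusted p = 0.0380). edin, an immune-induced peptide, fell as well (-4.65). In Drs, Def, DptA and edin mutant replicate 2 was the higher of the mutant libraries.

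Some heat shock genes rose in the starved mutant, with uneven mutant libraries. Of 10 small heat shock genes, 4 (1 without fed replicate 2, 2 without mutant replicate 2 or fed replicate 1) rose in the mutant and 3 (6 without starved wild-type replicate 1) in starved wild type. Of 20 larger chaperones, 8 (0 without mutant replicate 2 or fed replicate 2, 1 without fed replicate 1) rose and 7 fell in the mutant, and 1 (0 without either mutant library or starved wild-type replicate 2 or either 4 h library or either fed library, 6 without starved wild-type replicate 1) rose and 9 fell in starved wild type. Hsp23 had 115 and 749 scaled TPM in the mutant, 1458 and 739.9 in starved and 1.91 and 4.24 in fed wild type. Hsp70Ab, an inducible Hsp70, had 46.4 and 309.6 in the mutant, 14.1 and 189 in starved and 2.28 and 1.25 in fed wild type. Mutant replicate 2 was several times mutant replicate 1 in both genes. Near-identical Hsp70 copies share reads, so their single values are uncertain. For chaperones, starved against fed wild type, higher genes numbered 5 rescaled over coding genes and 6 with a pseudocount of 0.1.

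Markers of other tissues moved with some of these groups. The summed level of 17 midgut genes was 117 and 527 scaled TPM in the starved mutant, 2.59 and 6.99 in the starved wild type and 134 and 226 in the fed wild type. Of the 12 tested, 8 (2 without mutant replicate 2, 4 without either fed library) rose and 0 (3 without mutant replicate 2) fell in the mutant. Without mutant replicate 2, 6 were tested, of which 2 were higher and 3 lower, with a median log2 fold change of -1.39, against 2.65 with all libraries. The lysozyme LysX had 41.4 and 64.7 in the mutant, 1.28 and 0.407 in starved and 1.89 and 0.858 in fed wild type. The trypsin gene alphaTry had 5.68 and 44.8 in the mutant, 0.261 and 0.621 in starved and 0.994 and 0.431 in fed wild type. Against starved wild type, 12 (5 without mutant replicate 2 or starved wild-type replicate 1, 7 without starved wild-type replicate 2) of the markers were higher in the mutant. Among the named rises, Peritrophin-15a, a protein of the gut's peritrophic matrix, had 64.7 and 496 in the mutant, 7.61 and 0 in starved and 0.133 and 0.170 in fed wild type. CG7290, CG7298, CG9682 and CG5550 were likewise several times higher in mutant replicate 2 than in replicate 1, as were the summed midgut markers. The part of gut RNA in these rises was not tested. Gonad genes such as aly and can averaged below the filter. aly had 0 and 0 in the mutant, 1.26 and 0.0384 in starved and 0.403 and 0.0475 in fed wild type. can had 0.0161 and 0 in the mutant, 1.34 and 0.00971 in starved and 0.329 and 0.0275 in fed wild type. The gonad genes zpg and osk were not higher in replicate 1 of starved wild type. The part of gonad RNA in the libraries was not tested. The summed level of 14 muscle genes was 100.3 and 66.2 in the starved mutant, 29.8 and 41.4 in the starved wild type and 191 and 126 in the fed wild type, and that of 13 blood cell genes was 582 and 347 in the starved mutant, 259 and 201 in the starved wild type and 436 and 370.4 in the fed wild type. The blood cell sum rests on different genes in different groups. Col4a1 had 233 and 156 in the mutant and 213 and 175 in fed wild type. vkg had 230 and 155 in the mutant and 209 and 181 in fed wild type. NimC2 had 195 and 143 in starved wild type, 1.23 and 1.03 in the mutant and 0.455 and 0.528 in fed wild type. This sum is therefore no measure of blood cell RNA across the groups. For midgut markers, mutant against fed, higher genes numbered 4 fitted on only the 4 libraries compared. For midgut markers, mutant against starved wild type, higher genes numbered 4 fitted on only the 4 libraries compared and 5 with a pseudocount of 5.

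Some genes left the fed level in opposite directions. Of all genes tested, 90 were higher than fed in the starved mutant and lower in the starved wild type, and 45 were lower in the mutant and higher in the wild type. The neprilysin-like gene Nepl11 led the first set, with 269.9 and 166 scaled TPM in the mutant, 0.406 and 0.452 in starved and 18.9 and 12.8 in fed wild type and a log2 fold change of 3.68 in the mutant and -3.54 in the wild type. CG4259, CG13170, CG34215 and CG16756 followed, with log2 fold changes in the mutant of 3.66, 3.46, 2.12 and 1.76. In the second set, beside Fbp2 and Lsp2, Obp99b, an odorant-binding protein, had 13.3 and 25.6 in the mutant, 13152 and 12211 in starved and 883 and 2094 in fed wild type. Obp99b had a log2 fold change of -6.13 (SE 0.51, adjusted p = 0.000412). The maltase Mal-A5 had 6.14 and 11.6 in the mutant, 414 and 362 in starved and 51.0 and 91.3 in fed wild type (-2.87). lectin-28C had 0.121 and 0.0694 in the mutant, 93.2 and 82.5 in starved and 6.16 and 7.87 in fed wild type (-2.86). CG31075 was at 10.9 and 9.89 in the mutant, 605 and 455 in starved and 549 and 542 in fed wild type, so that it was low in the mutant alone among the 3 groups (-5.58), and CG15369, CG13560 and CG45045 completed the 10 largest falls (-5.11, -4.83 and -4.45). CG13461 had 556 and 799.6 in the mutant, 3.27 and 3.01 in starved and 1.02 and 2.27 in fed wild type and rose in the mutant (8.02).

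Many genes of RNA 3' end formation and splicing fell in both starved groups. Of 19 cleavage and polyadenylation factors, 10 (6 without mutant replicate 2 or fed replicate 2) fell and 3 (1 without either mutant library or either fed library) rose in the mutant, beside 11 (6 without fed replicate 1, 7 without starved wild-type replicate 2) and 2 (0 without starved wild-type replicate 1 or either fed library, 1 without starved wild-type replicate 2) in starved wild type. Cpsf6, which joins Cpsf5 in the same complex, had 5.36 and 5.30 scaled TPM in the mutant, 3.92 and 3.07 in starved and 14.8 and 14.9 in fed wild type. Cpsf6 had a log2 fold change of -1.33 (SE 0.14, adjusted p = 0.000992). CstF50 of the cleavage stimulation factor had 2.08 and 1.12 in the mutant, 1.58 and 1.15 in starved and 6.72 and 6.44 in fed wild type (-1.57). Both starved groups lay below fed without overlap. Pcf11, which links cleavage to transcription termination, ran the other way, with 25.2 and 24.0 in the mutant, 14.4 and 15.3 in starved and 8.89 and 7.34 in fed wild type. It rose more in the mutant (log2 fold change 1.49, SE 0.21, adjusted p = 0.00235) than in starved wild type, with a difference of 0.69 that passed (adjusted p = 0.0466). These Pcf11 values sum all its isoforms. The isoform RC, with a short annotated coding sequence, took its largest share in the mutant, as given below. Of 14 SR splicing factors and kinases, 9 (5 without mutant replicate 2 or fed replicate 2) fell and 2 (1 without either fed library) rose in the mutant. B52, the main SR protein of the fly, had 13.0 and 13.2 in the mutant, 15.7 and 16.2 in starved and 90.8 and 99.98 in fed wild type, so that all 4 starved libraries lay far below fed (log2 fold change -2.77, SE 0.17, adjusted p = 0.000187), and SC35 fell by 1.96. For polyadenylation factors, mutant against fed, higher genes numbered 1 with no scaling or rescaled over coding genes. For polyadenylation factors, starved against fed wild type, higher genes numbered 0 with no scaling or rescaled over coding genes.

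Isoform use shifted in the starved mutant against fed in 563 of 1948 genes tested. Of 5141 isoforms, 452 took a higher share (8.79%) and 487 a lower share (9.47%) of their gene at an adjusted p under 0.05, and the shares are estimates of the authors' tool from short reads. Starved against fed wild type gave 494 higher (9.61%) and 378 lower (7.35%) shares. Starved mutant against starved wild type gave 364 higher (7.08%) and 512 lower (9.96%) shares. Cpsf5 changed its isoforms, and less so in the mutant than in starved wild type. Its isoform RB, annotated with a 3' UTR of 1375 nt, made up 14.7% and 16.1% in the starved mutant, 46.2% and 54.4% in the starved wild type and 7.48% and 8.90% in the fed wild type. Isoform RC, with a 3' UTR of 423 nt and a longer coding sequence (711 nt, against 609 nt for RB), held the rest. The rise of RB against fed passed in the mutant (adjusted p = 0.0128) and in starved wild type (adjusted p = 0.00215). The mutant share was lower than that of starved wild type (adjusted p = 0.0118). Cpsf5 levels were low in both starved groups, as given above. The 1 TPM that the test adds to each side of the isoform ratio therefore bears on these results.

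The isoform RA of Eaat1, a glutamate transporter, made up 95.8% and 92.1% in the starved mutant, 0% and 0% in the starved wild type and 0% and 0% in the fed wild type. Its isoform RD held 0.851% and 1.01% in the mutant, against 95.6% and 99.0% in fed wild type, and both isoforms are annotated with the same lengths of coding sequence and 3' UTR. Eaat1-RA switched against fed (adjusted p = 0.00159) and against starved wild type (adjusted p = 0.00196). Isoform RA of ath behaved likewise, with 89.4% and 91.2% in the starved mutant, 0% and 0% in the starved wild type and 0% and 0% in the fed wild type. In EMC2A, a gene of the complex that inserts proteins into the endoplasmic reticulum membrane, the switch was found in both starved groups: isoform RA made up 85.0% and 100% in the starved mutant, 100% and 100% in the starved wild type and 0.542% and 0% in the fed wild type. mRpL48, a mitochondrial ribosomal protein, was similar. Its isoform RA made up 100% and 100% in the starved mutant, 100% and 100% in the starved wild type and 12.9% and 8.20% in the fed wild type. The gene had 4.60 and 11.7 scaled TPM in the mutant, 1.37 and 1.11 in starved and 9.20 and 7.96 in fed wild type. The mRpL48 shares in starved wild type therefore rest on low values. The remaining large switch, in CG6908, rests on a gene mean of 1.01 TPM in the mutant, against 45.4 TPM in the fed wild type. Among 3' end factors, the Pcf11 isoform RC, whose annotated coding sequence is 258 nt against 5517 nt for RH, made up 69.6% and 73.0% in the starved mutant, 54.8% and 48.4% in the starved wild type and 41.1% and 33.0% in the fed wild type (adjusted p = 0.0102 against fed). The isoform RA of PNUTS, a subunit of a phosphatase complex that acts at transcription termination, made up 28.3% and 26.8% in the starved mutant, 10.4% and 6.29% in the starved wild type and 8.71% and 9.12% in the fed wild type (adjusted p = 0.0238 against fed).

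The average annotated 3' UTR of a gene, weighted by the TPM of its isoforms, became longer more often than shorter in the starved mutant. Of 1274 genes with isoforms that differ in 3' UTR length by at least 100 nt, 137 were longer (10.8%) and 71 shorter (5.57%) than in fed wild type, with a median log2 ratio of 0.03. In starved wild type 62 were longer (4.87%) and 33 shorter (2.59%). Directly against starved wild type, 108 were longer (8.48%) and 90 shorter (7.06%) in the mutant. The largest changes by the naming rule were in CG12128, Cpr65Ax2, Cyp6a17, CG43110 and CG7564 (longer) and in CG5084, Kaz-m1, BomBc2, CG34026 and CG7290 (shorter), several of which were near 0 TPM in 1 of the groups, where the weights add 1 TPM spread over the isoforms and set the length. With genes limited to a mean of 5 or more TPM in both starved mutant and fed wild type, a limit added after the data were seen, 91 of 1020 were longer and 39 shorter. Among the same 1020 genes, 35 were longer and 13 shorter in starved than in fed wild type. Directly between mutant and starved wild type, 60 were longer and 60 shorter in the mutant, with no lean either way. A change of the weighted length rests on annotated isoforms and can come from their starts or splicing as well as from their ends.

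The genes below passed that limit and were chosen after their values were seen. The limit does not cover starved wild type. There the deposited TPM was 2.42 and 3.43 for frc, 1.55 and 1.89 for snRNP-U1-70K and 2.51 and 2.39 for Prp39. It was 2.79 and 4.42 for Ptp61F, 15.8 and 17.9 for aralar1 and 320 and 488 for RpL3. In the first 4 of these genes the added 1 TPM therefore bears on the starved wild-type lengths. In frc, a nucleotide-sugar transporter, the weighted 3' UTR was 1119 and 1019.8 nt in the starved mutant, 652 and 576 nt in the starved wild type and 415 and 395 nt in the fed wild type. It was longer in the mutant than in fed (log2 ratio 1.40, SE 0.08, adjusted p = 0.00178) and than in starved wild type (log2 ratio 0.80, adjusted p = 0.00410), and the 3 groups did not overlap. snRNP-U1-70K, a protein of the U1 snRNP, which is known to restrain early polyadenylation, had 1020.4 and 971 nt in the starved mutant, 726 and 843 nt in the starved wild type and 478 and 419 nt in the fed wild type (log2 ratio 1.15, SE 0.12, adjusted p = 0.00709), and its difference from starved wild type did not pass (log2 ratio 0.35, adjusted p = 0.130). Prp39, another U1-associated protein, had 946 and 974 nt in the starved mutant, 877 and 1004 nt in the starved wild type and 379 and 318 nt in the fed wild type, so that both starved groups lay far above fed. Shorter lengths were found in aralar1, the mitochondrial aspartate-glutamate carrier, with 268 and 316 nt in the starved mutant, 555 and 554 nt in the starved wild type and 551 and 505 nt in the fed wild type. It was shorter in the mutant than in fed (log2 ratio -0.86, SE 0.09, adjusted p = 0.00709) and than in starved wild type (log2 ratio -0.93, adjusted p = 0.00410). Ptp61F, a tyrosine phosphatase that acts on JAK/STAT and insulin signals, had 366 and 368 nt in the starved mutant, 639.8 and 784 nt in the starved wild type and 624 and 602 nt in the fed wild type (log2 ratio against starved wild type -0.95, adjusted p = 0.0176). RpL3, a large-subunit ribosomal protein, had 111 and 107 nt in the starved mutant, 108 and 109.9 nt in the starved wild type and 178 and 175 nt in the fed wild type, with a log2 ratio between the starved groups of 0.01, adjusted p = 0.951.

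**Figure D5:**
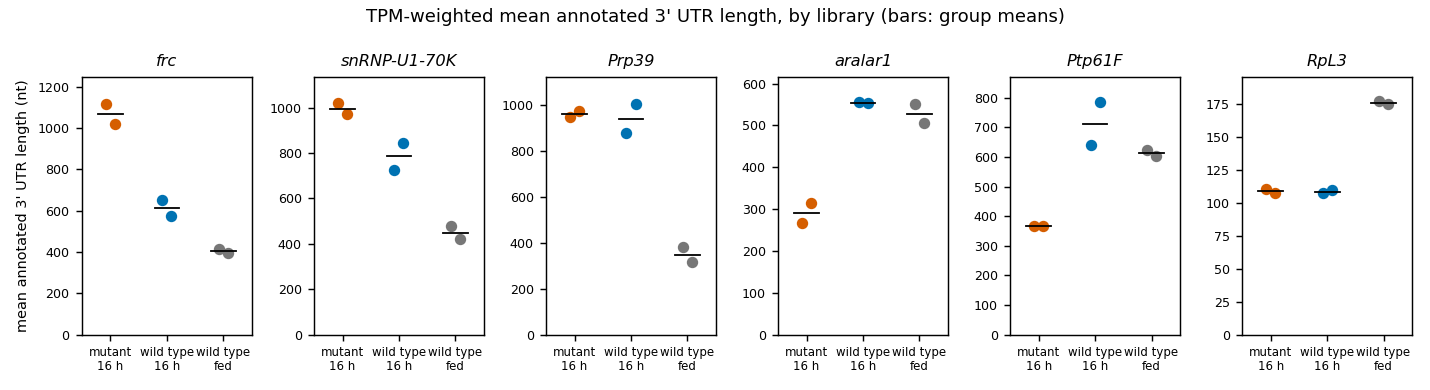
TPM-weighted mean annotated 3' UTR length (nt, axes from 0) in each library of the mutant starved for 16 h, the wild type starved for 16 h and the fed wild type; points are libraries and bars group means. frc and snRNP-U1-70K are longest in the mutant, aralar1 and Ptp61F shortest in it, and Prp39 and RpL3 lie at nearly the same length in both starved groups. The starved wild-type lengths of frc, snRNP-U1-70K, Prp39 and Ptp61F rest on low TPM, so the TPM added to the weights bears on them.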

How the data were processed

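RNA sequencing of larval fat body was measured in 8 libraries, of which 2 starved mutant and 2 fed wild-type ones form the comparison. Groups follow the genotype and starvation labels, and replicate numbers, absent from the labels, follow accession order. Trizol RNA went into stranded total RNA libraries depleted of ribosomal RNA, per the labels' protocols. The tool and build named are STAR 2.5.3 and BDGP6, per the submitters' processing notes. The quantifier is not given in the sources used here. TPM values were deposited by the authors per gene and per isoform, 1 column a library, with 0 unused sample columns. Of 17471 genes, 17249 were named by identifier from Ensembl BDGP6.54, 132 by their summed isoforms, and 90 kept their identifier. Of 34485 transcripts 34114 matched. Antisense and overlapping genes may share reads, since use of strand in counting is not stated.

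TPM were divided by median-of-ratios factors from 5393 genes whose TPM reached 1 in each of the 8 libraries. Genes averaging 1 or more entered limma 3.58.1 (R 4.3.3) as log2(scaled TPM + 1), with 4 group means over all 8 libraries, a variance trend, and two-sided p-values adjusted by Benjamini-Hochberg across the genes tested (4 residual degrees of freedom; median prior 2.16). This scale understates changes of low genes. An exact permutation test of 2 against 2 libraries cannot give p below 0.333. Isoform use (mean share 5% to 95%, gene mean 5 TPM or more) was tested on log2((isoform TPM + 1)/(other isoforms' TPM + 1)), and 3' UTR lengths on the log2 of their TPM-weighted mean, both on deposited TPM. All 3 procedures were tested on simulated data, with independent normal noise around fed means and changes set in a part of the features. The simulation did not model the ribosomal RNA content of these libraries. It therefore bears on neither their scaling nor their error rates.

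The comparison, its members and the 39 gene lists were chosen with earlier results of these data known, and 14 list entries matched no gene. Named genes are Cpsf5, Atg1, Atg8a, the 10 largest rises and falls among called protein-coding genes with separate group ranges and a higher mean of at least 5, 5 each way that moved oppositely in mutant and wild type, 5 each way that moved alike with a difference under 0.5, and up to 4 members per list (up to 2 with the smallest p where none passed). Isoforms and 3' UTR changes named are the 5 largest each way past the test without overlap. Isoforms of 3' end factors, the 3' UTR genes with values, and list members beyond these were chosen after their values were seen. Alternatives were other scalings, pseudocounts, filters, fits and leaving out each library. No sequences are printed.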

Additional observations from a re-analysis of the deposited data

How the results depend on the processing

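No paired analysis was possible because the labels carry no replicate numbers. Where 1 library of a group was left out, the lone library was assumed to vary like the other groups. For starved mutant against fed, 1246 genes were higher with no scaling, 980 with genes averaging 5 or more, and 906 to 2105 with 1 library left out; 1160 were lower with genes averaging 5 or more, and 1223 to 1997 with 1 library left out. For starved wild type against fed, 523 were higher and 4027 lower with no scaling, 1067 and 1476 with genes averaging 5 or more, and 1016 to 1886 and 1630 to 2445 with 1 library left out. For starved mutant against starved wild type, 3767 were higher and 335 lower with no scaling, 1127 higher with genes averaging 5 or more, and 1040 to 1934 higher and 553 to 1123 lower with 1 library left out. Isoforms with a higher and lower share in the mutant against fed numbered 255 and 264 with a pseudocount of 0.1, 290 and 318 with genes averaging 10 or more TPM, 256 and 316 with shares of 10% to 90%, and 106 to 527 and 118 to 592 with 1 library left out. Longer 3' UTRs numbered 77 with genes averaging 10 or more TPM, 81 with only the 4 libraries compared, 91 with genes at 5 or more TPM in both groups and 36 to 164 with 1 library left out, and shorter ones 45, 39 and 24 to 79 under the last 3 of these. Of 164 named genes, 109 kept their direction and side of the threshold under every alternative, and Sgs7, not called, ranged from -2.93 without fed replicate 2 to 0.035 without fed replicate 1 (-1.43 with all libraries). The causes of these moves were not tested. Depth is unknown, so no limit of detection is given.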

Other observations

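Among gene groups not described above, 0 of 32 proteasome genes rose and 0 (7 without either 4 h library) fell in the starved mutant at an adjusted p under 0.05 in limma (median log2 fold change -0.37; 3 at an unadjusted p under 0.05), beside 3 (0 without either starved wild-type library or either fed library, 7 without 4 h replicate 2, 8 without 4 h replicate 1) falling in starved wild type. Of 19 subunits of the vacuolar proton pump, 2 (1 without either mutant library or either fed library) rose and 4 (1 without fed replicate 1, 2 without mutant replicate 1 or either starved wild-type library or fed replicate 2) fell in the mutant, and of 18 cuticle genes 2 (0 without fed replicate 2, 1 without mutant replicate 1 or fed replicate 1) rose and 3 (1 without fed replicate 1, 5 without mutant replicate 1 or fed replicate 2) fell. Of 12 muscle genes 0 (1 without either starved wild-type library or either 4 h library) rose and 0 (2 without either 4 h library) fell in the mutant (2 at an unadjusted p under 0.05 in limma), beside 10 (2 without fed replicate 1, 3 without starved wild-type replicate 1, 6 without starved wild-type replicate 2 or fed replicate 2) falling in starved wild type, and of 10 blood cell genes 3 (1 without either fed library) rose in the mutant. For proteasome genes, mutant against fed, lower genes numbered 5 with no scaling and 7 rescaled over coding genes or fitted on only the 4 libraries compared. For proteasome genes, starved against fed wild type, lower genes numbered 1 with quantile normalisation, 13 fitted on only the 4 libraries compared, 14 rescaled over coding genes and 32 with no scaling. For proton pump subunits, mutant against fed, higher genes numbered 4 fitted on only the 4 libraries compared and lower genes numbered 2 with no scaling. For cuticle genes, mutant against fed, higher genes numbered 0 with a pseudocount of 0.1 and lower genes numbered 5 with no scaling or with quantile normalisation. For muscle genes, mutant against fed, lower genes numbered 2 with quantile normalisation or with a pseudocount of 5.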
